A study of Homo sapiens with 16 samples.

Results

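The integrated stress response was followed in 10 genes, ATF4, DDIT3, TRIB3, SESN2, ASNS, INHBE, CHAC1, PPP1R15A, SLC7A5 and SLC7A11, across maps of N6-methyladenosine (m6A), an adenosine mark of messenger RNA. The genes are ATF4 and genes known to be raised by it, together with INHBE, which was picked because its m6A signal differed between the resistant and the parental cells of this study. All values of INHBE are therefore a description and carry no test. The question put to the data was whether INHBE moved with the other 9 genes. These 10 genes are a small part of the 13083 genes with a called base, and their spans held 423 of the 452349 bases called in any library. No called base lay inside a span on the opposite strand.

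The cells were U87 MG (U87), a widely used established line of human glioma. U87-R was derived from it and resists the alkylating drug temozolomide (TMZ). U87 carried a DMSO control label and had no TMZ in its medium, U87-R carried the same label and was grown with 50 µM TMZ, and the third group was U87-R given STM2457 at 50 µM for 96 hours, also in medium with 50 µM TMZ per the growth protocol. STM2457 is a small molecule that blocks METTL3, the enzyme that writes m6A. Resistance and the presence of the drug in the medium cannot be told apart here, and the labels do not say how many clones U87-R came from. There were 3 m6A-eCLIP libraries of U87, 3 of U87-R and 2 of treated U87-R. The labels do not say that replicates came from separate cultures, so the p-values set a group difference only against the spread between these libraries. That spread may be technical.

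Each library was a deposited list of called bases, each with a score and no read count, so depth is unknown. The sum of the scores of a gene's called bases was used as its level, and a gene or base with none is written as listed at 0. A sum rises with both the mark and the amount of RNA, so more mark per molecule, more molecules per cell and more cells carrying them cannot be told apart. The libraries held 149477 to 192697 called bases in the untreated groups, and 105900 and 110875 after STM2457. Of 12 glioma line markers, 11 had a called base and GFAP had none. Of 16 markers of other cell types, 5 had one, with a summed score of 190 to 411 against 5083 to 11008 for the glioma markers. METTL3 itself gave means of 113, 187 and 147 in U87, U87-R and treated U87-R, and passed the test in neither comparison (adjusted p = 0.429 and 0.539, limma). U87-R replicate 2 gave the lowest sum of its group in all 10 genes, as it did in 57.01% of the 10518 genes tested. After scaling to each library's total score it was still lowest in 8 of the 10, against 41.8% of genes tested. Results that rest on this library are given with and without it.

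In the integrated stress response, kinases that sense amino acid shortage, misfolded protein, viral RNA or haem shortage phosphorylate the translation factor eIF2. General translation then falls, while ATF4, a bZIP transcription factor whose messenger carries upstream open reading frames, is translated more. ATF4 raises genes for amino acid synthesis and uptake and for glutathione handling, and also its own partners and brakes. Among the latter are DDIT3 (CHOP), a bZIP factor linked to cell death under stress, and PPP1R15A (GADD34), which returns phosphatase to eIF2. INHBE encodes the beta E subunit of the activin and inhibin family and is best known as a gene of the liver.

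Short windows around annotated transcript starts are shown because the start sums described further on rest on bases called there. Each window is 30 bases long, 10 before the start and 20 from it on, read 5′ to 3′ on the gene's strand from RefSeq (GRCh38.p14), and capitals mark the bases called in at least 1 library. INHBE and SLC7A11 had no start entry in this reference and are not shown, and TRIB3 and PPP1R15A had no called base there.
ATF4, chr22:39520549-39520578, plus strand: cggccacggcagccATTTctactTTgcccg
DDIT3, chr12:57520495-57520524, minus strand: cgctcccgaggtCAGagactTaagtctaag
SESN2, chr1:28259508-28259537, plus strand: cccggcgagcgctggCAGTtccgcggcggg
ASNS, chr7:97872389-97872418, minus strand: gccgcccgtCAAgctgtccacatccctggc
CHAC1, chr15:40953461-40953490, plus strand: gggggcgctCAGctggagctaccgagcggt
SLC7A5, chr16:87869488-87869517, minus strand: ggggttccTGACgCAgctgcgggcggcggg

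The 26 called bases in these 6 windows were 8 A, 6 C, 4 G and 8 T, so most of them were no adenosine. Over all genes with a start entry, 44.21% of the 24101 bases called in such windows were A. Adjacent letters were often called together with nearly the same score. In DDIT3 the neighbouring C and A scored 81.8 and 79.8 in treated replicate 1, and in ASNS the C before the start and the A at the start scored 85.4 and 79.7.

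Upstream of the start, 2 of the 8 genes with an entry held the letters TGATGNAA, the composite element that ATF4 and a C/EBP partner are known to bind, searched on both strands from 250 bases before to 50 after the start. They are shown because the set is defined by ATF4. Capitals mark the match.
ASNS, chr7:97872458-97872487, match at -68 on the gene's strand: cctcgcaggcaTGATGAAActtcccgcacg
CHAC1, chr15:40953251-40953280, match at -209 on the opposite strand: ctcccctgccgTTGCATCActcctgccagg
The letters occurred in 3.617% of the 35116 entries of this length and in 4.457% of genes with an entry.

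INHBE (chromosome 12, 57455307 to 57458025, plus strand, hg38) was nearly uncalled in U87 and strongly called in U87-R. Its sum of scores was 0.405, 0.254 and 18.8 in the 3 U87 libraries. The U87-R libraries gave 1129, 167 and 869, and the treated libraries 311 and 263. The U87-R and U87 libraries did not overlap, and U87-R replicate 2 lay lowest of the 3, below both treated libraries. The group means were 6.48 ± 10.7 (SD, n = 3), 721 ± 498 (n = 3) and 287 ± 34.1 (n = 2). On the log2(sum + 1) scale the difference of U87-R over U87 was 7.39 ± 1.10 (SE), and 5.27 with a pseudocount of 10, since the U87 sums lay near 0. With a library left out it ran from 6.70 to 8.69, and was 8.25 without U87-R replicate 2. The difference of treated over untreated U87-R was -0.93 ± 1.23. It was -1.79 without U87-R replicate 2, -0.41 without replicate 1 and -0.60 without replicate 3, -0.33 and -0.38 under the scalings, and -0.12 with the replicate block.

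**Figure D1:**
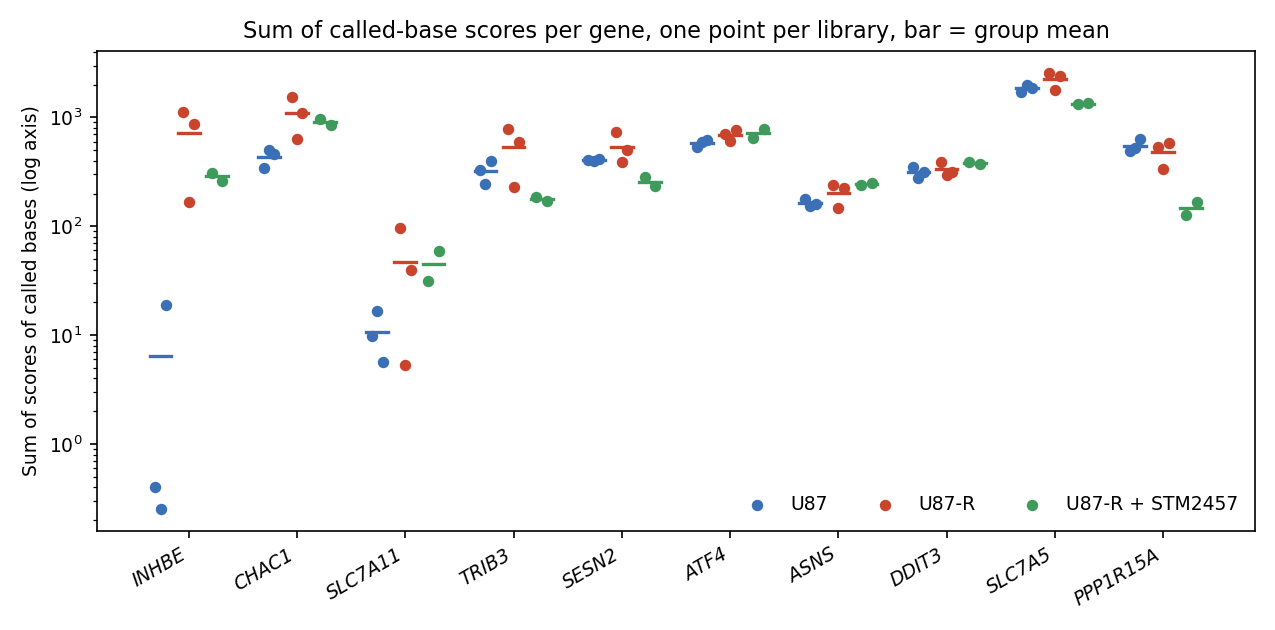
Sum of scores of called bases per gene on a log axis, with 1 point per library and a bar at the group mean for U87, U87-R and U87-R with STM2457. INHBE and SLC7A11 have the lowest U87 libraries, at 0.254 to 18.8 and 5.61 to 16.8, and the U87-R libraries of INHBE lie at 167 to 1129.

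Along the gene, the INHBE signal lay at the very start and in a stretch well inside it. Of its 44 called bases, 9 were called in any U87 library, 35 in any U87-R library and 23 in any treated library. The highest score in U87 was 7.36. Over all groups 38 of the bases lay between nt 1003 and nt 1870 of the 2719-nt span. The U87-R libraries called 25, 14 and 22 of these, which carried 94.6% to 96.8% of their sum. The tallest were at nt 1253, which scored 135.6, 18.9 and 110.8 in the U87-R libraries, and at nt 1263, which scored 133.7, 27.6 and 111.1. All 12 bases called in every U87-R library were lowest in replicate 2, so this library was lower across the gene and not at single bases.

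STM2457 treatment went with a higher score at the first base, while in the stretch inside the gene treated and untreated U87-R libraries overlapped. The first base of the INHBE span was listed at 0 in U87, scored 35.3, 5.38 and 42.3 in U87-R, and 84.3 and 88.2 after treatment. Both treated libraries lay above all untreated ones at this base. In 67.2% of genes with start sums tested, the treated start sums lay above those of all U87-R libraries. The stretch from nt 1003 to nt 1870 summed to 1078, 161 and 822 in U87-R and to 213 and 166 after treatment, so here the treated values lay above replicate 2 and below the other 2. The first base made up 3.12% to 4.87% of the sum in U87-R and 27.1% to 33.5% after treatment. Of the 12 bases called in all U87-R libraries, 10 were called in both treated libraries as well, and 6 were lower there than in any U87-R library.

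**Figure D2:**
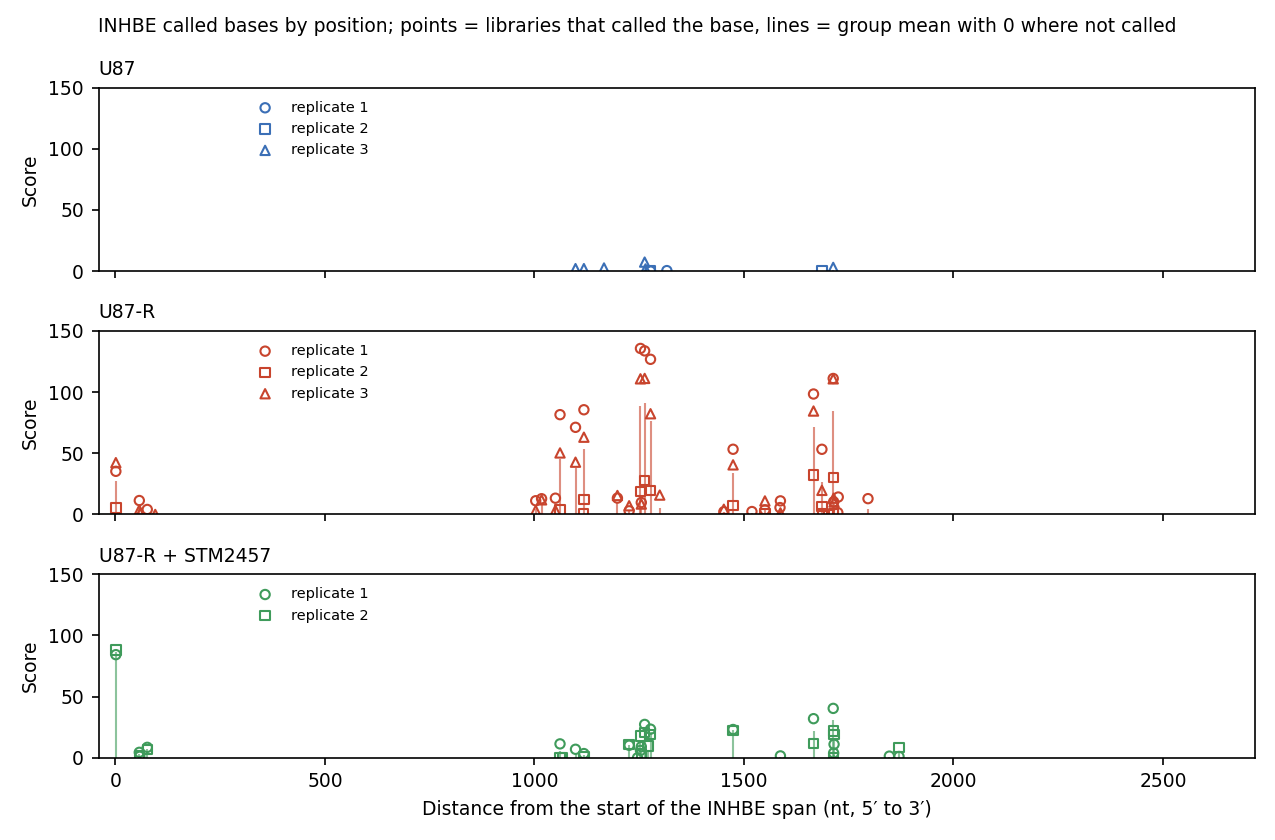
Scores of INHBE called bases against distance from the start of the gene span in nt, in 3 panels for U87, U87-R and U87-R with STM2457, with a symbol per replicate and a line at the group mean. U87 stays at or below 7.36, U87-R peaks near nt 1253 to nt 1263, and the treated libraries are tallest at the first base, at 84.3 and 88.2.

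Among the other 9 genes, none passed the test between U87-R and U87 (limma, Benjamini-Hochberg adjusted p under 0.05 over 10518 genes), where 1.26% of all genes tested did and 0.894% were called higher. CHAC1 was the single gene of the 9 with an unadjusted p under 0.05, and also the single one whose U87-R libraries all lay above all U87 libraries, a pattern that 11.0% of genes tested showed. The changes were above 0 in 8 of the 9, with a median of 0.275 on the log2 scale against 0.123 over all genes tested. With the replicate number as a block, 68 in place of 133 genes (0.647% of those tested) were called, and still none of the 9.

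CHAC1, an enzyme that breaks down glutathione, showed the clearest separation of the 2 lines among the 9. U87 gave sums of 343, 501 and 457, U87-R of 1539, 629 and 1101, and STM2457-treated cells of 959 and 845. The U87-R libraries were all above U87, with replicate 2 again lowest. The log2 change was 1.25 ± 0.30 (SE; 95% interval 0.58 to 1.93), with an adjusted p of 0.109. This value passed the threshold without U87-R replicate 2 (adjusted p = 0.0146), after centring each library on its median sum (0.0213, where 1.02% of genes tested were higher) and after scaling to total score (0.0382, where 1.09% were). It did not pass with the replicate block (0.178), with 2 groups only (0.292) or when called bases were counted (0.716). Nor did it without U87-R replicate 1 (0.244) or 3 (0.324), or without any 1 U87 library (0.126 to 0.329).

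ATF4 itself differed little between the 2 lines. Its sums were 531, 589 and 627 in U87 and 703, 604 and 773 in U87-R, which overlap, with a log2 change of 0.25 ± 0.14 (adjusted p = 0.538, limma). DDIT3, its partner, gave 352, 276 and 314 in U87 and 390, 295 and 318 in U87-R, with a change of 0.09 ± 0.16 (adjusted p = 0.895). The 95% interval for DDIT3 ran from -0.29 to 0.46, and its change lay just below 0 under both scalings.

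The 2 brakes of the pathway went different ways, neither beyond the spread. TRIB3, a pseudokinase that binds ATF4 and AKT, gave 328, 243 and 395 in U87 and 776, 228 and 595 in U87-R. U87-R replicates 1 and 3 were above all U87 libraries and replicate 2 was below them all. PPP1R15A gave 494, 522 and 631 in U87 and 535, 340 and 580 in U87-R, with overlap on both sides, and was the single gene of the 9 with a change below 0 (-0.21 ± 0.23, adjusted p = 0.778).

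Of the amino acid genes, SESN2, which senses leucine and restrains mTORC1, gave 408, 402 and 414 in U87 and 730, 391 and 501 in U87-R. ASNS, asparagine synthetase, gave 179, 153 and 162 in U87 and 239, 147 and 225 in U87-R. All 36 of its called bases also lie in the annotated readthrough gene CZ1P-ASNS on the same strand, so the 2 cannot be told apart. SLC7A5, the LAT1 transporter of large neutral amino acids, had the highest sums of the set, 1729, 2004 and 1848 in U87 and 2587, 1801 and 2401 in U87-R. In these 3 genes U87-R replicates 1 and 3 were above every U87 library and replicate 2 was not.

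SLC7A11, the cystine and glutamate exchanger that feeds glutathione synthesis, had the lowest sums of the set in U87-R and in treated cells. U87 gave sums of 9.75, 16.8 and 5.61, U87-R of 97.2, 5.33 and 39.9, and treated cells of 31.5 and 58.9. As in TRIB3, U87-R replicate 2 lay below all U87 libraries and the other 2 lay above them. The change of 1.44 had a 95% interval of -0.81 to 3.69.

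Without U87-R replicate 2, all 9 changes were above 0 and 7 had an unadjusted p under 0.05, as 17.2% of genes tested did. Since replicate 2 was the lowest of its group in all 9, leaving it out could only raise these changes. After adjustment, CHAC1 alone was called, where 1.81% of all genes tested were. The median change of the 9 was then 0.493 against 0.236 over all genes. What made replicate 2 low in these genes was not tested.

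**Figure D3:**
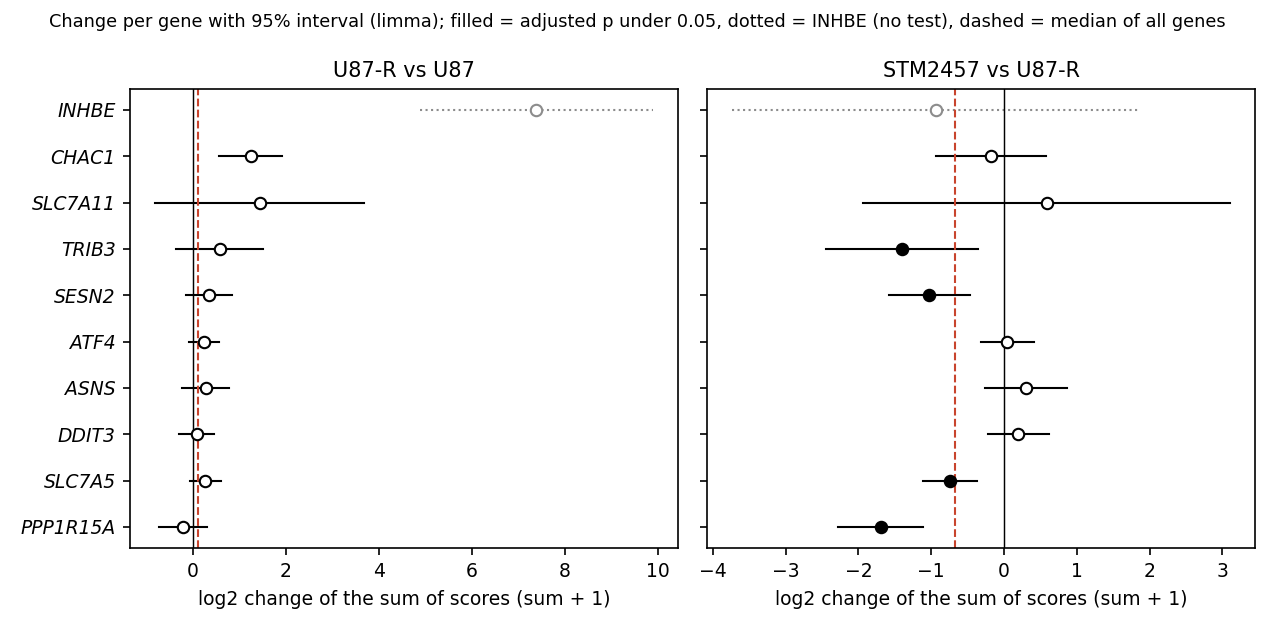
log2 change of the sum of scores (sum + 1) per gene with its 95% interval, for U87-R against U87 on the left and STM2457 against untreated U87-R on the right. Filled points passed the adjusted threshold, the dotted INHBE entry has no test, and the dashed line is the median of all genes tested, 0.123 on the left and -0.68 on the right.

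After STM2457, 4 of the 9 genes were lower, TRIB3, SESN2, PPP1R15A and SLC7A5, and none was higher, where 44.1% of all genes tested were called, 37.8% lower and 6.29% higher (limma). The untreated U87-R libraries are the same as in the comparison above. The median change of the 9 was -0.18 against -0.68 over all genes, so the median of the 9 fell less than the median gene. The same 4 genes were called without U87-R replicate 2, and were those whose treated libraries all lay below all U87-R libraries, which 49.7% of genes tested did. ASNS lay above without overlap, as 17.2% of genes tested did.

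PPP1R15A had the largest fall of the 4. Its U87-R sums of 535, 340 and 580 became 127 and 166, a log2 change of -1.70 ± 0.26 (adjusted p = 0.000926). PPP1R15A also passed under both scalings (-1.14 and -1.10) and with any 1 library left out, but not when called bases were counted in place of scores (-0.62, adjusted p = 0.0909). TRIB3 went from 776, 228 and 595 to 187 and 169, a change of -1.40 ± 0.46 (adjusted p = 0.0346). SESN2 went from 730, 391 and 501 to 281 and 233 (-1.03 ± 0.25, adjusted p = 0.00899). SLC7A5 went from 2587, 1801 and 2401 to 1325 and 1359 (-0.74 ± 0.16, adjusted p = 0.00635).

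The other 5 genes did not pass. ATF4 had treated sums of 652 and 780, DDIT3 of 388 and 373, and ASNS of 240 and 252, and their changes were 0.05 ± 0.16, 0.20 ± 0.18 and 0.30 ± 0.25. CHAC1 changed by -0.18 ± 0.33, with a 95% interval of -0.94 to 0.58, and SLC7A11 by 0.59 ± 1.11. Set against U87, the treated libraries of 5 of the 9 (ATF4, DDIT3, ASNS, CHAC1 and SLC7A11) all lay above, a pattern that 21.9% of genes tested showed. Those of the other 4 (TRIB3, SESN2, PPP1R15A and SLC7A5) all lay below, and the share of all genes that did so was not counted. INHBE also lay above, but it was picked for its difference from U87, so this is a description only.

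These directions depend on how libraries are scaled. Centring on the median sum moved the median change of all genes from -0.68 to -0.12, and scaling to total score moved it to -0.10. PPP1R15A was then the single gene called lower, at -1.14 and -1.10, while ATF4 (0.61 and 0.65), DDIT3 (0.75 and 0.80) and ASNS (0.86 and 0.90) were called higher. Over all genes tested, 24.2% were then lower and 15.4% higher with centring, and 23.5% and 16.1% with scaling. TRIB3, SESN2 and SLC7A5 kept changes below 0 but no longer passed (adjusted p = 0.0894, 0.0658 and 0.299 with centring). TRIB3 also missed the threshold without U87 replicate 1, U87-R replicate 1 or 3, or either treated library. It missed it too with scores of at least 10 only (adjusted p = 0.0522), with 2 groups only (0.0802) and when called bases were counted (0.284). ATF4 was called lower when called bases were counted (-0.72, adjusted p = 0.015). Without treated replicate 2 PPP1R15A alone was called, and without treated replicate 1 PPP1R15A and SESN2 were.

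Splitting each gene into bases within 50 nt of an annotated start and all other bases showed opposite changes in DDIT3, whose whole sum had not passed. DDIT3 start bases summed to 163, 100.3 and 108 in U87-R and to 266 and 241 after STM2457, both above every untreated library. The other bases of DDIT3 summed to 227, 194 and 210 and then to 122 and 131, both below. The start bases rose by 1.06 ± 0.28 on the log2 scale (adjusted p = 0.0369, limma over 5108 genes), and the others fell by 0.73 ± 0.21 (adjusted p = 0.0163, limma over 9750 genes). Over all genes tested, 22.6% were called higher at the start and 54.3% lower away from it. In 67.2% the treated start sums lay above all U87-R libraries. How many genes showed both changes was not counted. Among the start bases, the one at nt 42 went from 38.8, 10.9 and 22.8 to 70.4 and 68.0. It is 1 of 4 DDIT3 bases that also lie in the annotated gene LOC128125814 on the same strand, and without these 4 the whole DDIT3 change was -0.09. The share of the DDIT3 sum at its start went from 34.0% to 41.9% in U87-R to 64.8% and 68.7% after treatment.

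Start sums passed as higher in 2 of the 6 genes tested besides INHBE, DDIT3 and SLC7A5, where 22.6% of genes tested did. SLC7A5 was listed at 0 near its start in all 3 U87-R libraries and summed to 50.5 and 86.9 after treatment. It met the filter for this test only with the treated libraries, so its direction was fixed in advance and no p-value is given. It had also been called there in U87 replicate 2, at 35.6. CHAC1 start bases gave 30.4, 0 and 13.6 in U87-R and 44.8 and 41.8 after treatment, and were listed at 0 in all U87 libraries, as in INHBE. SESN2 gave 53.7, 32.9 and 8.38, then 84.5 and 60.9. Neither CHAC1 nor SESN2 passed (adjusted p = 0.222 and 0.539), and their treated libraries lay above all U87-R libraries, as in 67.2% of genes with start sums tested.

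In the untreated libraries ATF4 and ASNS were the genes of the 10 with the largest share of their sum at the start. ATF4 start bases summed to 303, 299.9 and 335 in U87, to 390, 364 and 412 in U87-R, and to 412 and 496 after treatment. ASNS gave 117, 108 and 127, then 168, 147 and 165, then 185 and 195. In both genes U87-R lay above U87 without overlap at the start, as in 13.5% of genes with start sums tested, with changes of 0.31 ± 0.10 and 0.44 ± 0.11 (adjusted p = 0.285 and 0.154, limma, where 0.724% of genes tested were called higher). The start held 50.9% to 60.3% of the ATF4 sum and 65.4% to 100% of the ASNS sum in the untreated libraries.

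Away from the start, 5 of the 9 genes fell after STM2457, DDIT3, TRIB3, SESN2, PPP1R15A and SLC7A5, where 54.3% of genes tested fell. SESN2 fell by 1.42 ± 0.26 (adjusted p = 0.00158), more than over its whole span. ATF4, CHAC1, ASNS and SLC7A11 did not pass. TRIB3 and PPP1R15A had no called base near a start in any library.

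**Figure D4:**
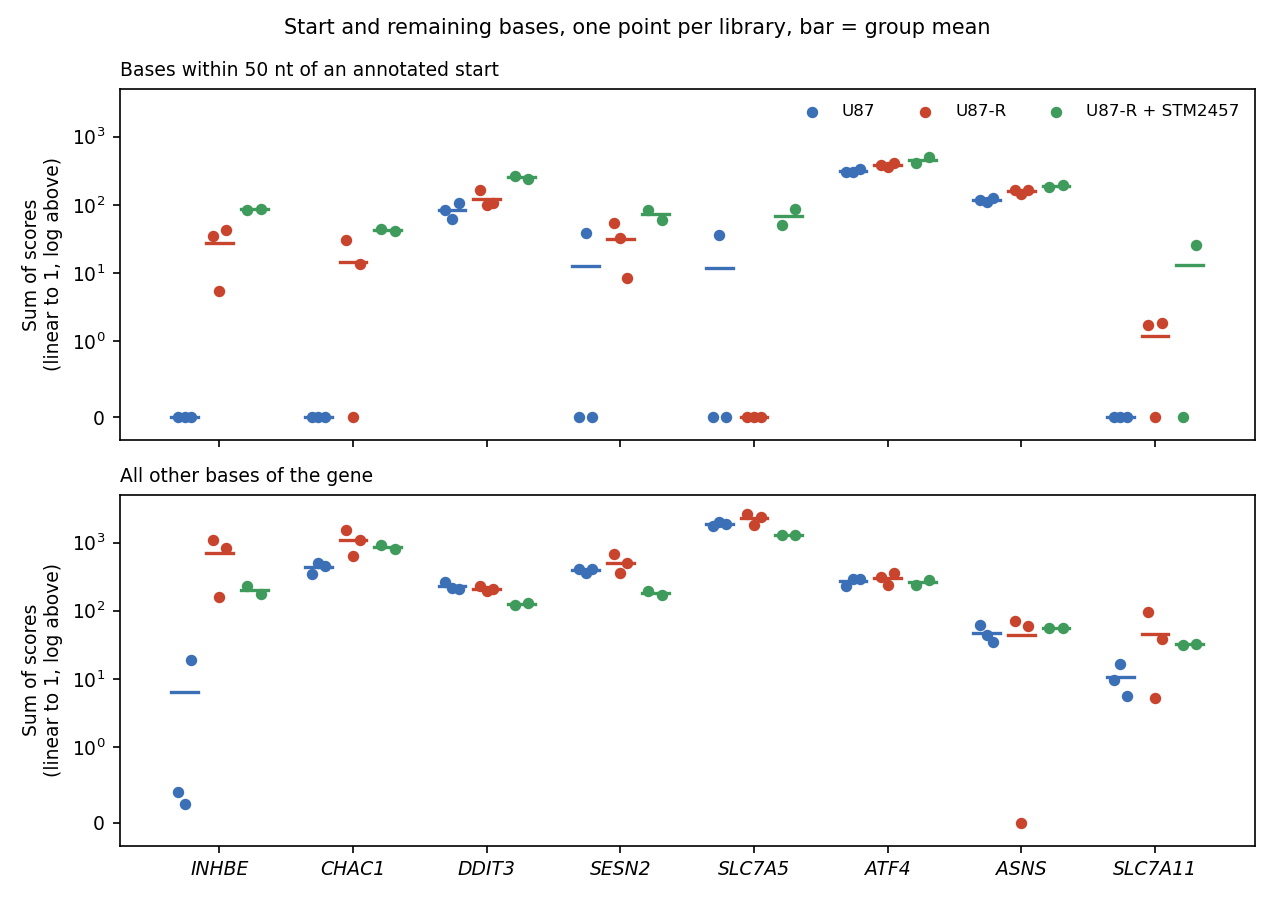
Sum of scores within 50 nt of an annotated start (top) and over all other bases (bottom), on an axis that is linear to 1 and logarithmic above, with 1 point per library and a bar at the group mean. For INHBE and SLC7A11, which had no start entry, the start of the gene span was used. In DDIT3 the treated libraries lie above all others at the start (266 and 241) and below all others elsewhere (122 and 131).

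At single bases, 206 bases of the 9 genes were tested, and none was called between U87-R and U87 (limma). Over all 188742 bases tested, 1 (0.000530%) was higher and 0 lower, and 20706 had an unadjusted p under 0.05. Without U87-R replicate 2, 3399 of all bases tested were higher and 578 lower, and the count within the 9 genes is given further on. After STM2457, 45 were lower and 14 higher, against 16.9% lower and 6.65% higher of all bases tested. Bases listed at 0 in every untreated library entered the test through the treated libraries and could be called only as higher. All 5 ASNS bases among the 14 were of this kind, and how many of the 14 were in all was not counted. Over bases called in at least 3 libraries, 5347 of 165063 were higher and 31525 lower. Of the 82 bases that scored at least 10 in every U87-R library, INHBE included, 21 were absent from both treated libraries and 48 still scored at least 10 in both. Over all genes these shares were 26.6% and 46.5%. SLC7A5 held 20 of the 45 lower bases and ATF4 and PPP1R15A 7 each.

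SLC7A5 showed bases lost and bases kept side by side near its 3′ end. The base at nt 38308 of its span scored 136, 104 and 136 in U87-R and 112 to 120 in U87, and was listed at 0 in both treated libraries (adjusted p = 4.93e-06). The base at nt 38356, 48 nt further on, scored 152 to 160 in U87-R and 159 and 153 after treatment. Between those 2, the base at nt 38340 was listed at 0 in all 6 untreated libraries and scored 99.2 and 147 after treatment. It entered the test only through the treated libraries, so its direction was fixed in advance and no p-value is given. In all, 5 bases were called from nt 38308 to nt 38356. The base at nt 38347, at 7.37, 18.2 and 67.3 in U87-R, was also listed at 0 after treatment, and the base at nt 38352 also kept its score, at 157, 159 and 151 and then 158 and 152.

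PPP1R15A had 7 bases called lower and TRIB3 4. The tallest PPP1R15A base, at nt 1088, went from 52.9, 53.4 and 77.5 to 12.1 and 22.3 (-1.81 ± 0.30, adjusted p = 0.00355). Its base at nt 2306 went from 34.0, 19.9 and 30.1 to 0 in both. The tallest TRIB3 base, at nt 16205, went from 85.0, 73.6 and 86.8 to 26.8 and 38.0 (adjusted p = 0.00198), and its base at nt 15882 from 78.2, 17.8 and 57.0 to 0 in both.

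CHAC1 and SESN2 kept their tallest base. The CHAC1 base at nt 2587 scored 141, 118 and 134 in U87-R and 134 and 110 after treatment, against 44.8, 90.5 and 70.0 in U87. A single CHAC1 base was called lower, at nt 2372, from 66.6, 19.1 and 44.2 to 0 in both. The SESN2 base at nt 21452 scored 89.6, 80.1 and 91.4 and then 78.2 and 79.2. The SESN2 base at nt 21526 went from 88.6, 12.2 and 61.7 to 0 in both (adjusted p = 0.00201, limma). Other SESN2 bases nearly as tall were lower after treatment. At nt 21468 the scores went from 92.3, 68.5 and 93.4 to 37.5 and 22.3. At nt 21629 they went from 78.1, 90.6 and 75.4 to 32.3 and 27.9.

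ATF4 and DDIT3 were then followed at their tallest bases. The ATF4 base at nt 6 scored 100.4, 126 and 110 in U87-R and 134 and 138 after treatment, which did not pass (adjusted p = 0.099). Another start base, at nt 14, went from 40.0, 19.04 and 26.4 to 0 in both (adjusted p = 0.0376), and further inside the base at nt 1376 went from 28.7, 24.0 and 24.0 to 0 in both (adjusted p = 0.000266). The base at nt 2035 was listed at 0 in all untreated libraries and scored 24.7 and 25.2 after treatment. It entered the test only through the treated libraries, so no p-value is given. The tallest DDIT3 base, at nt 3774, went from 66.0, 57.6 and 62.4 to 21.4 and 25.0 (adjusted p = 0.00127). ASNS had 5 bases called higher and none lower, and all 5 were listed at 0 in every untreated library and scored 27.9 or less after treatment. These 5 also entered the test only through the treated libraries, so their direction was fixed in advance. Of the 7 DDIT3 bases that scored at least 10 in every U87-R library, all 7 still did in both treated libraries. The DDIT3 base at nt 3389 fell just short of this limit in U87-R replicate 1. It went from 9.85, 19.8 and 23.0 to 0 and 0.995.

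**Figure D5:**
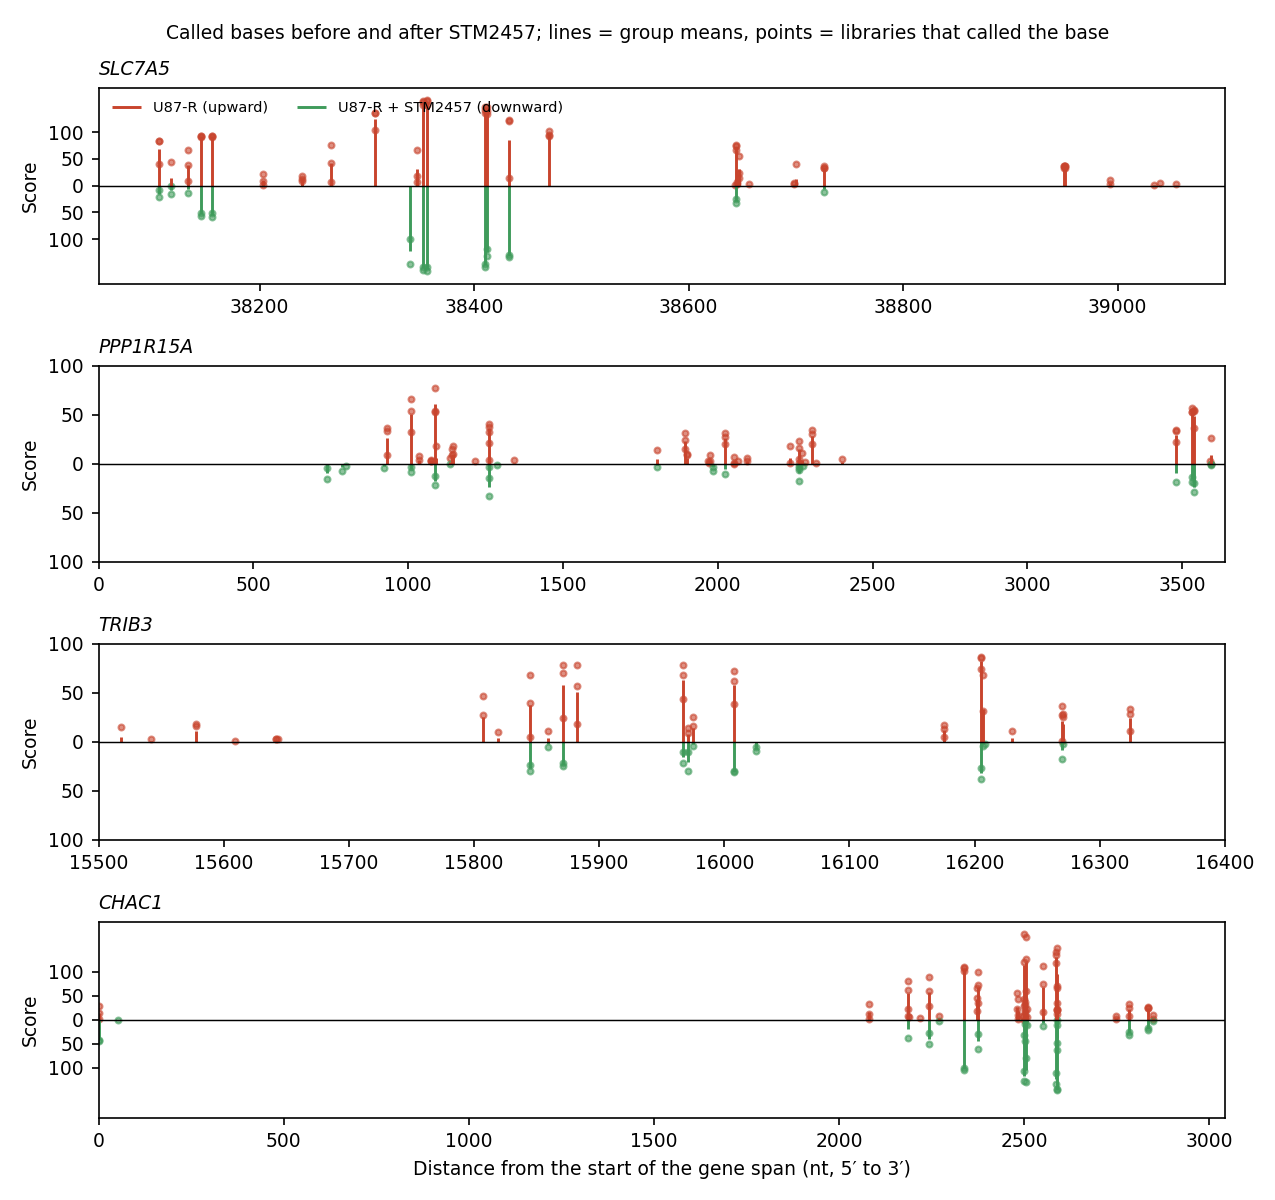
Scores of called bases against distance from the start of the gene span in nt for SLC7A5 (3′ part), PPP1R15A, TRIB3 (3′ part) and CHAC1, with U87-R drawn upward and U87-R with STM2457 downward, lines at group means and points for libraries that called the base. SLC7A5 at nt 38308 has no treated counterpart while nt 38356 is as tall in both, and CHAC1 at nt 2587 is kept.

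The authors' deposited lists of reproducible sites, 1 per group, counted 45 sites of the 10 genes for U87, 61 for U87-R and 19 for treated U87-R. Of these, 36, 44 and 19 passed in every library of their group, so only the treated list held no site that missed a library, and the counts are not like for like. INHBE had 0, 11 and 5 sites, and its 5 treated sites were all among the 11. Its sites that passed in every library numbered 0, 6 and 5. PPP1R15A had 11, 8 and 0, TRIB3 5, 6 and 0, SLC7A5 15, 16 and 6, SESN2 4, 6 and 2, and CHAC1 6, 8 and 5. ATF4 had none in any group although its bases scored over 100 in the per-library lists. Why was not tested, and how the site lists were filtered is not stated in the sources used here. In the authors' deposited peaks INHBE had 5, 25 and 7, CHAC1 14, 18 and 21, and PPP1R15A 23, 18 and 0. Of the INHBE peaks, 1, 21 and 7 passed in every library of their group. These lists join the libraries of a group and have no replicate error.

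Around the 10 genes, fixed lists of the pathway showed no call in U87-R against U87. Upstream, 17 of 20 genes of eIF2 signalling were tested and 0 passed, 0 of them with an unadjusted p under 0.05 (limma), and the median change was 0.348 against 0.123 over all genes. Of 10 bZIP partners of ATF4, 0 passed and 1 had an unadjusted p under 0.05, with a median of 0.107. Of 40 other ATF4 targets, 31 were tested and 0 passed, 7 with an unadjusted p under 0.05, beside 12.5% of all genes tested. Their median was 0.384 and 25 of the 31 were above 0. In 9 of them all U87-R libraries lay above all U87 libraries, beside 11.0% of all genes tested. ULBP1, a ligand for an activating receptor of natural killer cells, had the largest change of these, from a mean of 13.1 to 144 (3.49, adjusted p = 0.0835, limma). The activin and inhibin family had 10 of 19 genes tested, of which 0 passed and 1 had an unadjusted p under 0.05, and INHA, INHBB and INHBC had no called base. Of 15 genes of the IRE1 and ATF6 arms of the unfolded protein response, 0 passed and 2 had an unadjusted p under 0.05.

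After STM2457 genes of each of these lists were called lower, beside 37.8% of all genes tested. In eIF2 signalling 7 of 17 were lower, among them EIF2S3, a subunit of eIF2 (mean 98.8 to 5.65, adjusted p = 0.011), and PPP1CC, a catalytic subunit of protein phosphatase 1, which went from 179 to being listed at 0. Of the bZIP partners 5 of 10 were lower, led by NFE2L2 (-1.52) and JUN (-1.18). Of the other ATF4 targets 16 of 31 were lower, led by PYCR1, a proline synthesis enzyme (-3.96, adjusted p = 0.00385), and ULBP1 (-2.63, adjusted p = 0.0337). In the activin and inhibin family 8 of 10 were lower, with INHBA at -5.06 (mean 199.8 to 4.92) and the activin antagonist FSTL3 at -2.70. In the unfolded protein response 10 of 15 were lower, led by DNAJB9 (-2.31) and SDF2L1 (-1.998), and ATF6B was higher (mean 8.43 to 83.2, adjusted p = 0.0193). Median changes were -0.62, -0.68, -0.96, -1.46 and -1.05 in this order, beside -0.68 over all genes.

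No gene tested in the genomic surroundings of INHBE passed the test between U87-R and U87. Of 28 annotated genes within 300 kb, 22 had a called base, 20 were tested and 0 passed, 4 with an unadjusted p under 0.05 (limma, lowest adjusted p = 0.284, in MARS1), with changes from -2.35 to 2.60 and a median of 0.146. Over all genes tested, 12.5% had an unadjusted p under 0.05. GLI1, which begins 1.8 kb beyond INHBE, had means of 6.52 and 28.8, and INHBC had no called base. DDIT3 lies 58.6 kb away and R3HDM2 24.2 kb away, the latter with means of 399 and 454. After STM2457, 4 of the 20 were higher (MARS1, DCTN2, KIF5A and ARHGEF25) and 6 lower (R3HDM2, PIP4K2C, DTX3, AGAP2, AGAP2-AS1 and MARCHF9). Over all genes tested, 6.29% were higher and 37.8% lower.

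Ranked by the distance between log2(sum + 1) profiles over the 8 libraries, each centred on its own mean, the 5 genes closest to INHBE were PIK3R6, ZNF415, ZNF488, ZNF528 and DOCK8. Their U87 means were 0 to 2.50, like the 6.48 of INHBE. Their distances were 3.04 to 3.61. Unlike INHBE, PIK3R6 gave similar sums in all 3 U87-R libraries, 245, 258 and 269.8. ZNF488 gave 234, 65.4 and 146, with replicate 2 lowest as in INHBE. Of the other 9 genes SLC7A11 ranked 505 and CHAC1 540 of the 10518, followed by ASNS at 1999 and ATF4 at 2497, and PPP1R15A came last at 8054. This ranking is a description with no test.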

How the data were processed

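The labels list 16 samples, of which the 8 m6A-eCLIP libraries had a list of called bases and were used; the 8 input samples were not analysed here. STAR, cutadapt and UMI-tools and the build hg38 are named in the submitters' processing notes. The callers of bases and peaks, and how the score was computed, are not stated in the sources used here. The unit of the deposited per-library lists is a score per base that is never negative and ends at 708.396. The deposited lists of reproducible sites and peaks give the fraction of a group's libraries that passed and a combined score. They hold no counts, so depth is unknown, and the number of libraries limits precision.

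The members and lists were chosen with earlier results of these data known. Of 452349 called bases 393605 (87.01%) were given to 1 gene, by RefSeq spans (GRCh38.p14), with strands from the reference's start table or, where it had none, from at least 5 called bases with 80% or more on 1 strand. Scores were summed per gene and library. Start sums took the bases within 50 nt of an annotated start. In genes without a start entry, such as INHBE and SLC7A11, the start of the gene span was used instead. In R 4.3.3, limma 3.58.1 with its trend option was fitted to log2(sum + 1) with 3 group means over 8 libraries, for genes whose sum reached 10 in 2 or more libraries; p-values were Benjamini-Hochberg adjusted over all genes tested. No scaling was applied in the main fit. The same model was used for log2(score + 1) for each base called in 2 or more libraries of any 1 group. The fit was tested on simulated data.

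Named genes were the 10 members, up to 2 called genes per list and direction with the largest change, genes within 300 kb of INHBE, the 5 nearest profiles, and METTL3. Named bases were the tallest base and the called base with the largest change per direction. The ATF4 base at nt 1376, the DDIT3 bases at nt 42 and nt 3389, and the SESN2 bases at nt 21468 and nt 21629 were chosen after their values were seen.

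Pairing was checked by correlating each library's deviations from its group mean. Same-numbered U87 and U87-R libraries gave 0.101, 0.316 and 0.108, all above 0.1, from the data and not from the labels. The main fit had no block for replicate number, so its p-values take no account of such pairing. A fit with the block was run beside it, and called 68 in place of 133 genes between U87-R and U87. Differently numbered pairs ran from -0.206 to 0.144, and 2 of them (0.121 and 0.144) were above 2 of the same-numbered ones. Other settings tried were another pseudocount, no filter, 2 scalings, called bases in place of scores, a score minimum of 10, leaving out start bases or shared bases, 2 groups only, and each library left out.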

Additional observations from a re-analysis of the deposited data

Results flagged for a closer look

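Called bases just outside the spans, within 50 nt upstream on the gene's strand, belong to none of the sums above. INHBE had 4 such bases, listed at 0 in all U87 libraries, with sums of 55.4, 6.19 and 37.7 in U87-R (mean 33.1) and 70.0 and 31.5 after STM2457 (mean 50.8). In U87-R replicate 2 was again the lowest.

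In another 4 genes the upstream sums of both treated libraries lay above every U87 library. SLC7A11 had a treated mean of 55.8, with 37.6, 0 and 5.48 in U87-R and 0 in U87. CHAC1 had a treated mean of 43.1, from 1 base, with 28.3, 0 and 13.6 in U87-R and 0 in U87. SESN2 had a treated mean of 17.5, with 14.6, 0 and 4.05 in U87-R and 0 in U87. SLC7A5 had a treated mean of 43.5, was listed at 0 in U87-R, and gave 33.4 in U87 replicate 2 with the other 2 U87 libraries at 0. So in SLC7A11, CHAC1 and SESN2, 2 of the 3 untreated U87-R libraries were called here as well. These differences were not tested or set beside those of other genes. The other 5 genes had no called base in this window.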

How the results depend on the processing

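The count of genes called between U87-R and U87 was 133, and fell to 71 with called bases in place of scores, 87 with 2 groups only and 68 with the replicate block; leaving out a library gave 57 to 190, with 57 when U87-R replicate 1 was dropped, 61 when U87-R replicate 3 was and 75 when U87 replicate 1 was. Of the 9 members tested, 0 were called there, but 1 (CHAC1) was with either scaling, and 0 to 1 with a library left out. INHBE changed by 7.39 and kept its direction in every setting, at 5.27 with a pseudocount of 10 and 2.55 with called bases. At single bases of members 0 were called, and 0 to 3 with a library left out. The 3 were called without U87-R replicate 2, where 3399 of all 188742 bases tested were higher and 578 lower. After STM2457 4642 genes were called, and 2988 (without treated replicate 1) to 5152 with a library left out; of the members 4 were, and 1 to 4 with a library left out. With the replicate block 3971 genes and the same 4 members were called; treated and untreated U87-R libraries of the same number gave correlations of -0.020 and -0.023, so these numbers were not taken as pairs.

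Changes of members that did not pass in the main fit reversed in some settings. Between U87-R and U87, DDIT3 did with total scaling (-0.011), centring (-0.071), called bases (-0.332) and without start bases (-0.117), and ran from -0.030 to 0.172 with a library left out. TRIB3 (-0.082) and ASNS (-0.402) did with called bases, and ASNS without start bases (-1.522). PPP1R15A ran from -0.357 to 0.029 with a library left out. After STM2457, ATF4 did with called bases (-0.724, adjusted p = 0.015, limma) and without start bases (-0.201), and ran from -0.081 to 0.177 with a library left out. DDIT3 did with called bases (-0.277), without start bases (-0.727) and without shared bases (-0.086), and CHAC1 with total scaling (0.419) and centring (0.375). With a library left out CHAC1 ran from -0.532 to 0.113 and SLC7A11 from -0.522 to 1.455. The cause was not tested. ASNS gave no value without shared bases, since all of its bases are shared.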
